A study of Mus musculus with 2 samples.

Results

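The p53 pathway and the Gadd45 family were read from the day 2 comparison of 3T3-L1 cells as 10 genes fixed by symbol: Trp53, Mdm2, Ccng1, Gadd45a, Gadd45b, Gadd45g, Btg2, Plk2, Sesn1 and Phlda3. All 10 had probe sets under their own symbols, 18 of the 45101 probe sets and 10 of the 19086 named genes in the deposited table. 3T3-L1 is a mouse preadipocyte line that turns into fat cells under a hormone cocktail. The control cells carried the empty pMXs-puro retroviral vector. The other cells carried the same vector with Fbxl10 (now Kdm2b, a histone demethylase) behind a weak LTR promoter. Both were collected at day 2 of differentiation, which began 2 days after confluence, in serum-containing medium (10% fetal bovine serum) with 0.5 mM isobutylmethylxanthine, 0.25 µM dexamethasone and insulin (1 µg/ml). Each condition was a single RNA sample on 1 Affymetrix array. No difference below therefore has a replicate check or a test, and precision is limited by having 1 array on each side.

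p53, the product of Trp53, is a transcription factor that accumulates after DNA damage and other stresses and switches on genes that arrest the cell cycle, repair DNA or cause cell death. Mdm2 is both its target and its main antagonist, a ubiquitin ligase that marks p53 for destruction, so the pair forms a negative feedback loop. The 3 Gadd45 proteins are small stress sensors that bind cyclin-dependent kinases, PCNA and the kinase Map3k4, and they answer to different signals: Gadd45a is a classical p53 target, while Gadd45b and Gadd45g are induced mainly by cytokines and growth factors. Postconfluent 3T3-L1 cells divide again in the first days of the cocktail before they become fat cells, so genes of arrest and of division are both in play at this time.

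Signals are given first for the empty vector library and then for the library whose label says Fbxl10 overexpression, called the Fbxl10-labelled library. Plk2 and Gadd45b were at least 2-fold higher in the Fbxl10-labelled library and Gadd45g was at least 2-fold lower. Trp53, Mdm2, Ccng1, Sesn1 and Gadd45a were each higher by less than 2-fold, Phlda3 was level, and the probe sets of Btg2 contradicted each other. A probe set was taken as detected where its higher signal reached 19.4, the median of all signals, and for each gene the brightest detected probe set, by its mean log2 signal, was used. All 10 genes were detected, each with both signals above that threshold. In that count, 2 of 10 genes (Plk2, Gadd45b) were at least 2-fold higher, where 9.75% of the 11326 detected genes and 6.38% of the 10105 genes with both signals at the threshold were. A single gene of the 10 (Gadd45g) was at least 2-fold lower, where 5.33% and 4.33% of those genes were. The median log2 difference of the 10 genes was 0.41, against 0.06 over all detected genes, and 7 of 10 were above 0, against 54.0%. With 10 genes each gene weighs heavily in such a share, and nothing particular to the list is read from it.

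**Figure D1:**
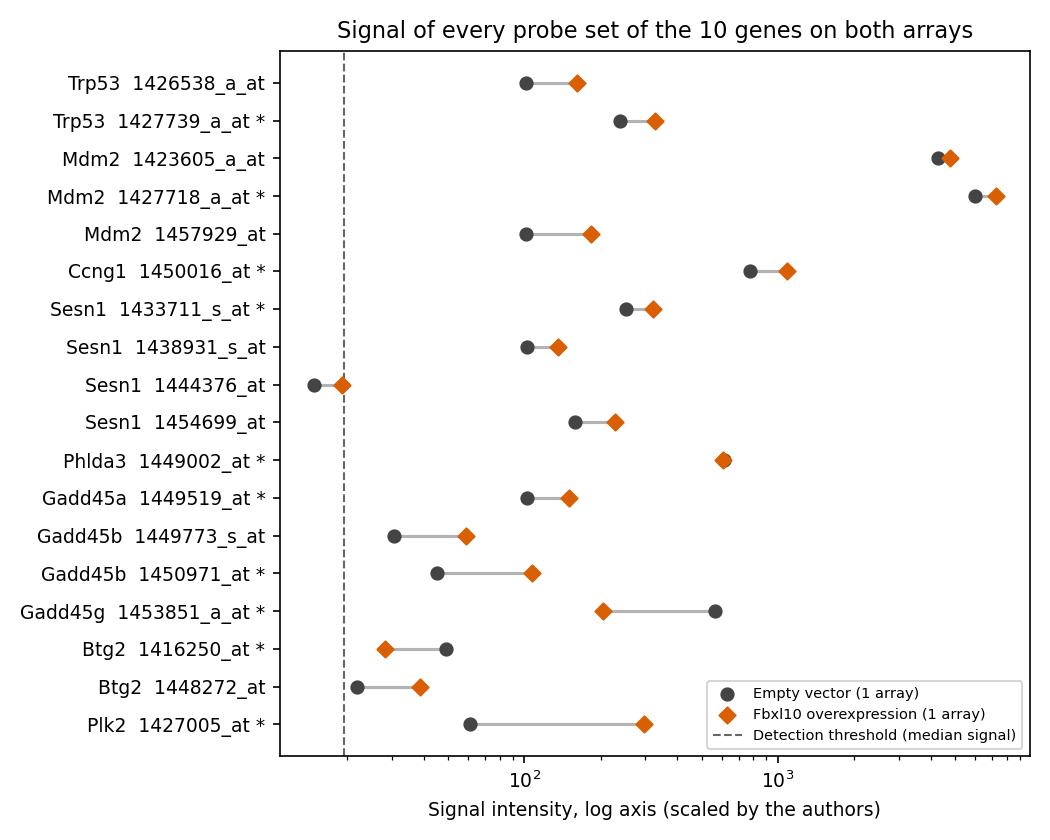
Signal intensity (log axis, scaled by the authors) of each of the 18 probe sets in the empty vector library (circles) and the Fbxl10-labelled library (diamonds), 1 array each; asterisks mark the probe set that represents the gene and the dashed line is the threshold of 19.4. Plk2 (60.8 and 295.7) and Gadd45g (564.2 and 204.9) are spread widest in opposite directions, and the Btg2 pair runs both ways.

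The vector's own target did not follow its label. Both Fbxl10 probe sets read lower in the Fbxl10-labelled library, at 431.6 and 350.9 and at 558.5 and 419.6 (log2 differences -0.30 and -0.41). Whether these probe sets lie within the cloned sequence is not given in the sources used here, so directions below are between libraries as labelled. Preadipocyte and fibroblast markers fitted the cell line, with 8 of 8 detected and a summed signal of 19521 and 27969. Of these, 7 were above 0 (54.0% of all detected genes), with Dlk1 at only 0.14, and Ly6a was below it (-0.38). Of 8 adipocyte markers, Cebpa and Plin1 had no probe set under their symbols in the table used here. All 6 others were detected and at least 2-fold lower in the Fbxl10-labelled library (5.33% over all detected genes), with a summed signal of 15892 and 1771. Adipoq, Cd36 and Cfd were detected through the empty vector array only, so they were at least 43.4-fold, 35.4-fold and 22.0-fold lower given the threshold. With detection on both arrays 3 markers remained, all at least 2-fold lower, against 4.33% of the genes with both signals at the threshold. Of 11 markers of leukocytes, epithelium, endothelium and muscle, 1 was detected, Cd68, at 13.0 and 21.5. In RNA from a whole culture fewer cells of a type and less RNA per cell cannot be told apart. The part of the adipocyte markers' difference in the values of the 10 genes was not tested.

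The p53 loop itself read modestly higher in the Fbxl10-labelled library. Trp53 read 239.3 (empty vector) and 328.3 (Fbxl10 label) at probe set 1427739_a_at, a log2 difference of 0.46. Its dimmer probe set, 1426538_a_at, read 101.3 and 161.9 (0.68). Both probe sets of Trp53 thus ran the same way and lay within 2-fold. The gap between them, like those given below for other genes, can be set against the SD between probe sets of 1 gene, which was 0.30 on the log2 scale over 4615 genes. That SD says nothing about separate cultures, since all those probe sets share 1 pair of hybridisations.

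Mdm2 was read by 2 bright probe sets and a dim one. Probe set 1427718_a_at read 6015 and 7225 and probe set 1423605_a_at read 4287 and 4790, log2 differences of 0.26 and 0.16. The highest signals on the arrays were 7946 and 9270, and whether the probes of Mdm2 were saturated was not examined. The dim probe set, 1457929_at, read 101.8 and 183.8, a larger log2 difference of 0.85. All 3 probe sets were higher in the Fbxl10-labelled library, by amounts that differed between the bright and the dim ones. The bright pair carries the suffix that Affymetrix gives to probe sets shared by several transcripts of 1 gene.

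Of Ccng1, Sesn1 and Phlda3, long used as readouts of p53 activity, Ccng1 and Sesn1 were higher by less than 2-fold and Phlda3 was level. Ccng1, cyclin G1, which recruits protein phosphatase 2A and acts on Mdm2, read 778.3 and 1089 (log2 difference 0.49). Sesn1, sestrin 1, which restrains the growth kinase complex mTORC1, read 251.7 and 321.7 at its brightest probe set, 1433711_s_at (0.35). It read 158.1 and 228.0 at 1454699_at (0.53) and 102.5 and 135.3 at 1438931_s_at (0.40). The suffix of 1433711_s_at and 1438931_s_at marks probes that may also match other genes. The remaining probe set of Sesn1, 1444376_at, was the single undetected probe set of the 18, at 14.8 and 19.1. All detected probe sets of Sesn1 lay above 0 and within 2-fold. Phlda3, a small pleckstrin homology protein that competes with the kinase Akt for membrane lipids, read 612.0 and 605.5, a log2 difference of -0.015.

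These small values sit close to the shifts that scaling brings. Over all detected probe sets the median log2 difference was 0.11, and 18 hybridization spike-in probe sets averaged 0.22. Relative to the spike-ins, Trp53 stood at 0.24, Ccng1 at 0.26, Sesn1 at 0.13 and Mdm2 at 0.043. At the probe sets that represent them, all 4 stayed above 0 under each scaling tried. The other bright probe set of Mdm2, 1423605_a_at, had a log2 difference of 0.16, which is below the spike-in average. Phlda3 did not keep a sign: it lay at -0.24 relative to the spike-ins, at 0.08 after quantile normalization and at 0.2 in the authors' deposited table of log2 ratios. Among all detected genes, 24.5% had a larger log2 difference than Trp53, 34.7% a larger one than Mdm2 and 55.1% a larger one than Phlda3.

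**Figure D2:**
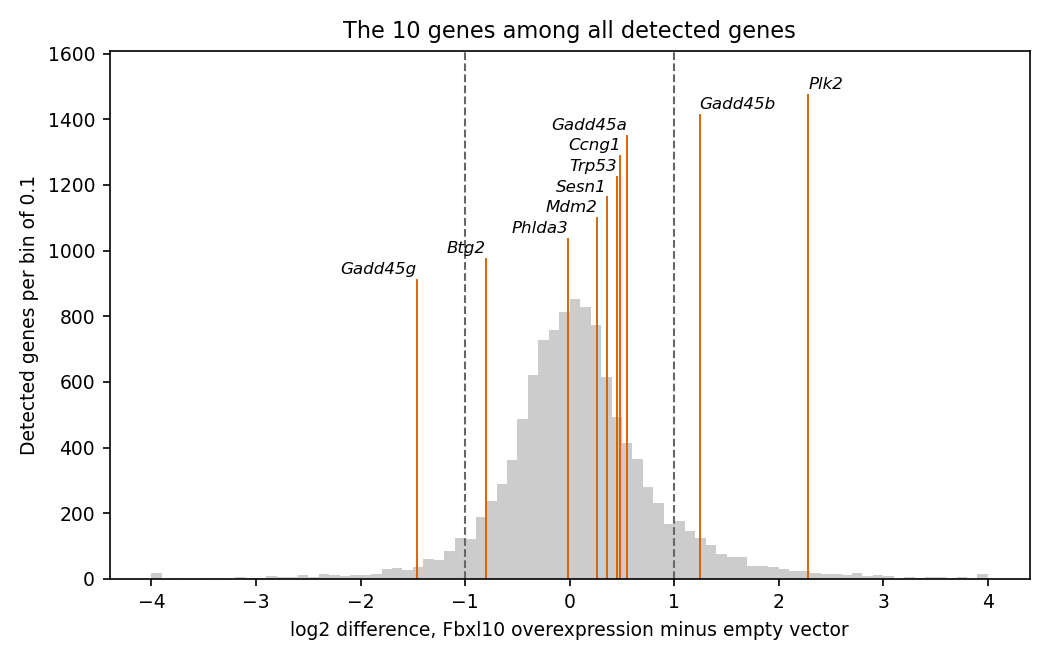
Histogram of the log2 difference (Fbxl10-labelled library minus empty vector) of 11326 detected genes in bins of 0.1, with values beyond the axis range put in the end bins; vertical lines place the 10 genes and dashed lines mark 2-fold. Trp53, Mdm2, Ccng1, Sesn1, Gadd45a and Phlda3 lie in the bulk of the distribution, while Plk2 (2.28) and Gadd45g (-1.46) lie in its tails.

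Of the 3 Gadd45 genes, Gadd45a and Gadd45b were higher and Gadd45g was lower. Gadd45a, the p53-responsive member, read 102.0 and 149.5 (log2 difference 0.55), and 20.7% of detected genes had a larger value. It lay between 0.33 and 0.6 under the scalings tried. Gadd45b, which was first described as a myeloid differentiation primary response gene and is induced by TGF beta and NF-kappa B, read 45.4 and 107.4 at probe set 1450971_at, 2.37-fold higher (1.24). Its other probe set, 1449773_s_at, read 30.5 and 58.8, 1.93-fold higher (0.95), and its suffix marks probes that may also match other genes. Both probe sets of Gadd45b were higher in the same library, on either side of 2-fold. In the authors' deposited table the log2 ratio was 0.9 for 1450971_at and 1.6 for 1449773_s_at, again on either side of 2-fold but in the opposite order.

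Gadd45g was the reverse of its relatives. Its single probe set, 1453851_a_at, read 564.2 and 204.9, 2.75-fold lower (log2 difference -1.46), and the value in the authors' deposited table was -1.5. Only 2.28% of detected genes were lower than Gadd45g. Under the scalings tried Gadd45g stayed between -1.68 and -1.42. Signal levels are not compared between probe sets of different genes, so no order of abundance within the family is given.

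The start regions of Gadd45b and Gadd45g are shown because these family members differed in opposite directions while sharing promoter letters. The 250 bases before the annotated start, 5′ to 3′ on the gene's strand, come from RefSeq (GRCm38.p6). Capitals mark every match to the motifs searched on both strands, which were picked after the sequences had been seen. The E-box was searched as CACGTG and the cAMP response element as TGACGTCA, which read the same on either strand. The CCAAT box was searched by its name's letters and the TATA motif as TATAA, each with its reverse complement. The p53 decamer was searched by its consensus, and no motif hits overlapped in the windows printed. Gadd45b lies on the plus strand at chr10:80929841-80930090 and Gadd45g on the plus strand at chr13:51846425-51846674.
Gadd45b: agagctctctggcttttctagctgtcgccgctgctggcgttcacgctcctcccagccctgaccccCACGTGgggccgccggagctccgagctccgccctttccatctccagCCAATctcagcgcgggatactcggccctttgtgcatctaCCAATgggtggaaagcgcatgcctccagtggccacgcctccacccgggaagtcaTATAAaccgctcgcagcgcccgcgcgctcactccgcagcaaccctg
Gadd45g: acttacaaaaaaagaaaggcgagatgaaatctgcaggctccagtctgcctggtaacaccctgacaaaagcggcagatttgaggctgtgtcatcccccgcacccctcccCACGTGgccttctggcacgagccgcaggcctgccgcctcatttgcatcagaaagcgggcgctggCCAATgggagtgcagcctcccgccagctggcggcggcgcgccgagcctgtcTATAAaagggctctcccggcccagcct

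Both windows held 1 E-box and 1 TATA motif, with 2 CCAAT boxes in Gadd45b and 1 in Gadd45g. The E-box began 185 bases before the start in Gadd45b and 142 before it in Gadd45g, and the TATA motif began 46 and 27 bases before it. Of 32851 mouse promoter windows of this length, 6.02% held the E-box letters, 22.8% the TATA letters and 33.8% a CCAAT box. Neither window held the cAMP response element or the p53 decamer. Such matches describe letters and not bound sites.

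Plk2 had the largest difference of the 10 genes. It encodes a polo-like kinase of centriole duplication that is induced rapidly by serum and is also a p53 target. Its single probe set, 1427005_at, read 60.8 and 295.7, 4.86-fold higher (log2 difference 2.28). Of the detected genes, 1.41% were higher than Plk2. It stayed between 1.8, the value in the authors' deposited table, and 2.28 under every scaling tried, so at least 2-fold higher in each.

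Btg2, which recruits the CCR4-NOT deadenylase complex and slows cell division, has no settled direction here. Probe set 1416250_at read 49.0 and 28.1 (log2 difference -0.80), and probe set 1448272_at read 21.9 and 38.7 (0.82). The signals were thus of opposite order at nearly equal size, and both probe sets were dim. The authors' deposited table gave both a positive log2 ratio, 0.2 and 0.4. A deposited ratio opposite to the signals is rare at this size: of 5501 detected probe sets whose log2 difference was at least as far from 0 as that of 1416250_at, 18 (0.327%) had a deposited ratio of opposite sign, this probe set among them. By its brighter probe set Btg2 passed 2-fold lower under quantile normalization (-1.03), under spike-in centring (-1.02) and with the brightness trend removed (-1.03), and the median of both probe sets was 0.0096.

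**Figure D3:**
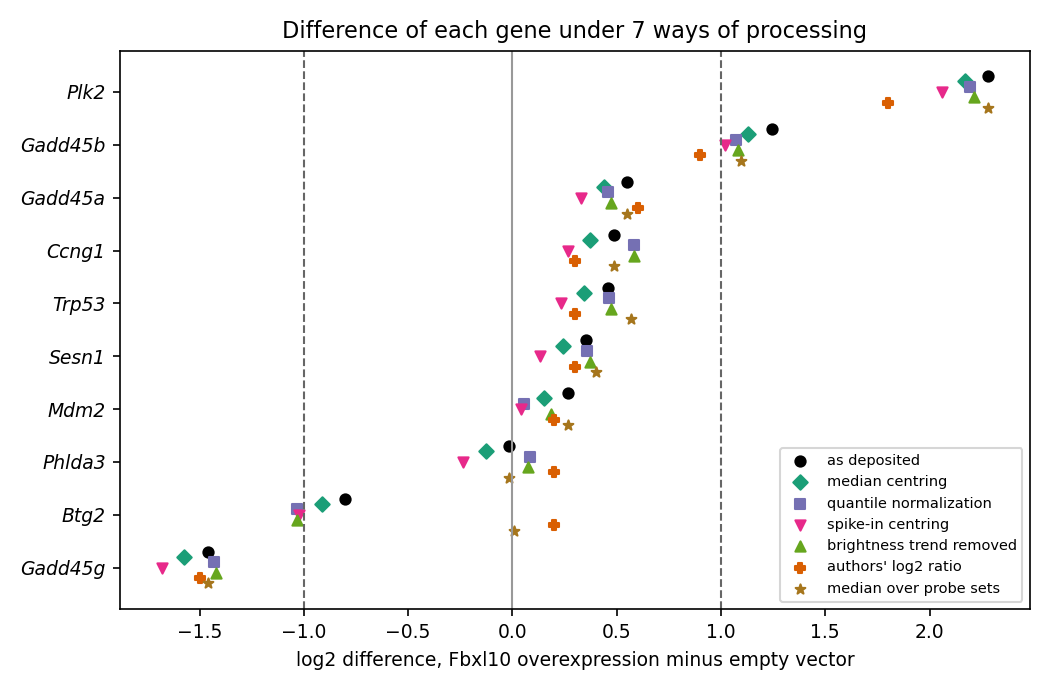
The log2 difference (Fbxl10-labelled library minus empty vector) of each of the 10 genes under 7 ways of processing, 1 symbol each, with dashed lines at 2-fold. Plk2 and Gadd45g keep their side of 2-fold throughout, Gadd45b lies from 0.9 to 1.24, and Btg2 runs from -1.03 to 0.2.

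The start regions of Plk2 and Btg2 are printed next because both held the cAMP response element, and isobutylmethylxanthine, which was in the medium of both cultures, raises cAMP. The windows and capitals are as for the Gadd45 genes. Plk2 lies on the plus strand at chr13:110394794-110395043 and Btg2 on the minus strand at chr1:134079156-134079405.
Plk2: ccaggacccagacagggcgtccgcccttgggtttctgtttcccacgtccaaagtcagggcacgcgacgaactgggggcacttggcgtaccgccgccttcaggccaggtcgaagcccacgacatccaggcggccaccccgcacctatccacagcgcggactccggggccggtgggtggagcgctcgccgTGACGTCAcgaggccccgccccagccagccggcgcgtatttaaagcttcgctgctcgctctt
Btg2: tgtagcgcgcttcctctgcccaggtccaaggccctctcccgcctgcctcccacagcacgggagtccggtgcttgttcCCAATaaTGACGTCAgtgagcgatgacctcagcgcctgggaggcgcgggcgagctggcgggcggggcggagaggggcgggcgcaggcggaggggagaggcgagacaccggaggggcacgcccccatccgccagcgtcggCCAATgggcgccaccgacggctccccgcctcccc

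The element began 62 bases before the start of Plk2 and 166 before the start of Btg2. It was found in 1.55% of all 32851 windows. The p53 decamer, searched by its name's consensus, was found in windows of 5 of the 10 genes (Trp53, Mdm2, Ccng1, Gadd45a and Sesn1) and in 7.13% of all windows. In Sesn1 it lay in 1 of its 2 annotated start regions. The 10 genes had 11 windows in all. The decamer was absent from the windows of Plk2 and Gadd45g, the genes farthest from 0. Those of Gadd45b, Btg2 and Phlda3, the last being the gene nearest 0, lacked it too. The well-known p53 sites of Mdm2 and Gadd45a lie in introns, outside the windows searched. The Mdm2 window, printed to show the decamer in capitals, lies on the minus strand at chr10:117710759-117711008, with the decamer beginning 186 bases before the start and a CCAAT box nearer to it.
Mdm2: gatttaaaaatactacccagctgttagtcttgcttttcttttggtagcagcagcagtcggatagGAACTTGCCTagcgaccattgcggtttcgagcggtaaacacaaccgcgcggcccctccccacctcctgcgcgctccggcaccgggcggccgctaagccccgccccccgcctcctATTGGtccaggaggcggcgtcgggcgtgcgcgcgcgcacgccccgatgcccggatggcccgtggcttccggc

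Other established p53 targets included genes past 2-fold in both directions. Of 35 listed, 27 were detected. In the Fbxl10-labelled library 5 of these passed 2-fold upward (9.75% over all detected genes) and 2 downward (5.33%) by the signals as deposited. Their median log2 difference was 0.22, against 0.06 over all detected genes. The downward count was 1 (Cdkn1a) once signals under the threshold were set to it. Cdkn1a, the CDK inhibitor p21 and the standard p53 reporter, read 840.6 and 306.6, 2.74-fold lower, and its 2 probe sets were at -1.46 and -0.71. Gdf15, a stress-induced cytokine, read 24.7 and 4.3, below the threshold in the second library and hence at least 1.27-fold lower. The glycolytic regulator Tigar read 55.9 and 30.8 (-0.86).

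At the other end of that list, Fas, a death receptor, read 46.4 and 125.4 (2.70-fold higher), and Eda2r, a related receptor named here after its value was seen, read 45.5 and 111.0 (2.44-fold higher). Ephx1, an epoxide hydrolase, read 117.4 and 298.0 (2.54-fold higher), and the phosphatase Ptprv read 9.7 and 49.8, at least 2.57-fold higher given the threshold. The fifth was Psrc1, also named after its value was seen, at 104.1 and 247.6. The cell death effector Bax stood at 0.21 on the log2 scale. Thus p21 and Gadd45g were lower in the same library in which Fas, Plk2 and Gadd45b were higher. Of the listed targets, Casp1, Perp, Pmaip1, Rprm, Tap1 and Tnfrsf10b were not detected, and Sfn and Xpc had no probe set under their symbols in the table used here.

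**Figure D4:**
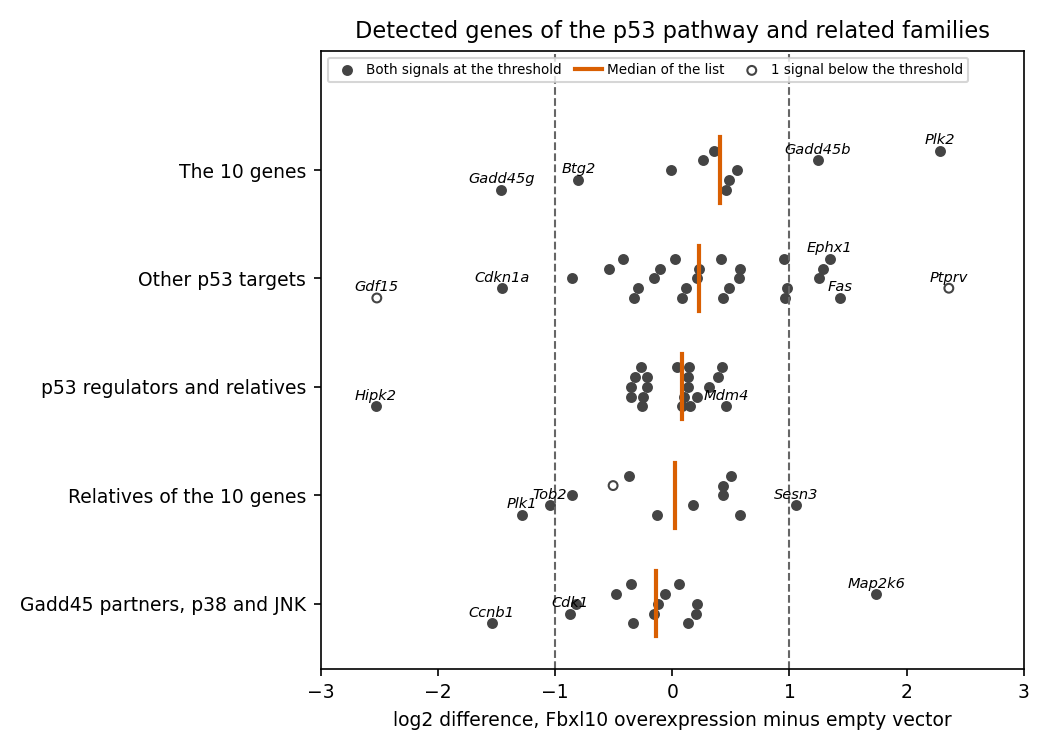
The log2 difference (Fbxl10-labelled library minus empty vector) of detected genes in 5 lists, 1 point per gene at its brightest probe set; open points had 1 signal below the threshold of 19.4, bars are list medians and dashed lines mark 2-fold. Most regulators of p53 cluster near 0 with Hipk2 (-2.53) far below, and Cdkn1a and Ccnb1 lie beyond 2-fold lower.

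Among regulators and relatives of p53, 1 gene passed 2-fold. Of 22 listed, 21 were detected, 0 were at least 2-fold higher (9.75% over all detected genes) and 1 was at least 2-fold lower (5.33%). The median of 0.08 turned to -0.14 with spike-in centring, where that of all detected genes turned from 0.06 to -0.16. The gene past 2-fold was Hipk2, a nuclear kinase that phosphorylates p53 after severe DNA damage. Its signals were 1059 with the empty vector and 183.0 with the Fbxl10 label, 5.79-fold lower (-2.53). All 8 detected probe sets of Hipk2 were lower, between -2.53 and -1.15, and 7 of them were at least 2-fold lower with both signals at the threshold. The remaining one, 1424864_at, read 30.5 and 10.3, so at least 1.57-fold lower. Mdm4, the partner of Mdm2, read 148.6 and 204.0 (0.46) at its brightest probe set and was highest of the list. Its 4 detected probe sets ran from -1.32 to 1.71, with 1 signal below the threshold at either extreme. Next came Cdkn2a (0.42), whose Arf product inhibits Mdm2, and Kat5 (0.39). After Hipk2 the lowest were Prmt5 (-0.35) and Trp63 (-0.35).

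Paralogues of the 10 genes did not share one direction. Of 15 listed, 12 were detected. Past 2-fold were 1 upward (9.75% over all detected genes) and 2 downward (5.33%), around a median of 0.02. Sesn3, a sestrin induced by FoxO factors, was the highest, at 511.1 and 1065 (2.08-fold higher), and its 3 probe sets lay between 1.06 and 1.34. Sesn3 stood at 0.84 with spike-in centring, which left 0 of the list past 2-fold higher and 3 lower. Over all 11326 detected genes that setting took 1104 higher and 604 lower to 757 and 955. Sesn2 stood at 0.43, near Sesn1, and Ccng2 at 0.43, near Ccng1. Phlda1 (0.58) and Btg3 (0.50) came next after Sesn3.

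The polo-like kinases and the BTG and TOB proteins differed among themselves. Plk1, the mitotic kinase, read 146.5 and 60.3, 2.43-fold lower, opposite to Plk2. Tob2 read 1061 and 514.2 (2.06-fold lower) and Tob1 1442 and 796.6 (-0.86). The 5 probe sets of Tob2 ran from -1.04 to 0.19, and 4 of 5 were below 0. Btg1, at 3716 and 4206, stood at 0.18.

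Partners of the Gadd45 proteins and the stress kinases downstream of Map3k4 lay within 2-fold in 12 of 14 cases, 85.7%, against 84.9% of all detected genes. Of 15 listed, 14 were detected. Past 2-fold were 1 upward (9.75% over all detected genes) and 1 downward (5.33%), around a median of -0.14. Ccnb1, cyclin B1, whose kinase complex Gadd45 proteins can inhibit in human cells, read 295.8 and 101.5 (2.91-fold lower), and its catalytic partner Cdk1 read 485.0 and 265.4 (-0.87). Tdg, a DNA glycosylase that works with Gadd45a in DNA demethylation, read 318.5 and 180.2 (-0.82), with all 3 probe sets below 0. Map2k6, which activates p38, read 23.3 and 77.8 (3.34-fold higher), close to the threshold on the first array. With spike-in centring Ccnb1, Cdk1 and Tdg, 3 in all, were past 2-fold lower and 13 of 14 lay below 0. That setting lowers every gene by 0.22. Of all 11326 detected genes it put 955 past 2-fold lower and 7050 below 0. Map3k4 stood at 0.21 and Ddit3, a stress transcription factor, at 0.21.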

How the data were processed

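Total RNA of 2 samples was hybridised to 1 array each after biotin labelling, per the labels' protocols. The deposited table gives a linear signal intensity per probe set, already scaled by the authors, and the authors' deposited log2 ratio to 1 decimal. The summarisation software is not given in the sources used here. A second deposited table held the same intensities, with 0 probe sets differing.

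Log2 differences were taken from the intensities as deposited (pandas 2.3.3, NumPy 2.4.6), and 4 probe sets with a signal of 0 had none. Symbols were updated through RefSeq synonyms (GRCm38.p6): 19745 probe sets carried a current symbol, 11805 a synonym and 2407 an unmatched name, while 11080 had several names or none. With 1 array per group there is no test, so 2-fold (a log2 difference of 1) was used as a rule of size. For a signal under the threshold of 19.4 the fold is a bound against the threshold. Of each comparison list the 3 highest and 3 lowest detected genes are named, with a few close relatives. The 10 genes and the lists were chosen with earlier results of these data known. The alternatives were median centring, quantile normalization, spike-in centring, removal of the brightness trend (statsmodels 0.14.6 lowess, span 0.3), both other sources of values, raised dim signals, other detection filters and the median over probe sets. Only the log2 difference and the 2-fold rule were tried on simulated data, and the other steps were not. Promoter windows came from RefSeq.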

Additional observations from a re-analysis of the deposited data

How the results depend on the processing

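Of 100 values of the 10 genes under 10 alternatives, 40 could not move, since the second table, raised dim signals and both detection filters leave values above the threshold as they were, and 20 moved by a constant of 0.11 or 0.22. Of the other 40, 36 moved by less than the SD between probe sets of a gene (0.30) and 4 by more, and 0 values past 2-fold changed sign. The 36 include further values that could not move. Ccng1, Gadd45a, Gadd45g, Plk2 and Phlda3 have 1 probe set each, which is its own median over probe sets. The 4 were Gadd45b (0.9), Plk2 (1.8) and Btg2 (0.2) by the authors' ratio, and Btg2 (0.0096) by the median over probe sets; the cause was not tested. The 2 genes at least 2-fold higher became 1 by the authors' ratio, where Gadd45b stood at 0.9. The single gene at least 2-fold lower became 2 when the brightness trend was removed, the spike-ins were centred or the arrays were quantile normalized, where Btg2 joined Gadd45g. The median of the 10 genes ran from 0.18 (spike-in centring, where that of all detected genes was -0.16) to 0.44. Of the 27 other p53 targets detected, 5 were at least 2-fold higher (9.75% over all detected genes). Without a detection filter, which adds dim genes, the count was 9 of 33 such targets and 3278 of 19085 genes. With detection on both arrays, which drops Ptprv, the count was 4 of 25 such targets and 645 of 10112 genes. At least 2-fold lower were 2 other p53 targets (5.33% over all detected genes). They became 1 with dim signals raised to the threshold or detection on both arrays, since Gdf15 was dim on 1 array. Over all detected genes, 1104 higher and 604 lower became 757 and 955 with spike-in centring. Probe sets of 1 gene differed by an SD of 0.36 below a mean signal of 100 and 0.20 from 500, so the values of Btg2 and Gadd45b, both dim, are the less precise. No paired analysis was possible because each group holds 1 sample.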

Other observations

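Probe sets of 1 gene in the wider p53 network agreed to different degrees. The 3 probe sets of Mdm2 span log2 differences from 0.16 to 0.85 and the 2 of Btg2 from -0.80 to 0.82. The 4 detected of Mdm4 span -1.32 to 1.71, with 1 signal below the threshold at either extreme. The 8 detected of Hipk2 were all lower, 7 of them past 2-fold with both signals at the threshold. The 3 of Sesn3 were all beyond 2-fold higher. Of the 17 detected probe sets of the 10 genes, 14 were above 0 and 3 below, where 58.0% of the 24233 detected probe sets with a log2 difference were above 0. The deposited ratio had the opposite sign to the signals at 2 of the 18, the brighter probe set of Btg2 and the probe set of Phlda3.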
